A study of Homo sapiens with 6 samples.

Results

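Ion channel subunit genes were examined in the established gastric signet-ring carcinoma line SNU668 after knockdown of GPER1, whose product is the G protein-coupled estrogen receptor. Members were chosen by text alone. They are the protein-coding rows whose gene description contains channel, voltage-gated, cholinergic receptor nicotinic, glutamate ionotropic receptor, gamma-aminobutyric acid type A receptor or purinergic receptor P2X, leaving out solute carriers (no row had to be dropped for that reason). This gave 34 of the 2128 genes in the table, or 34 of its 1841 protein-coding genes. No P2X receptor gene was among them. By ion or ligand they were 15 potassium channel genes, 4 genes of mixed cation channels, 3 chloride channel genes, 3 voltage-gated calcium channel genes, 3 nicotinic receptor genes, and 1 gene each for the sodium leak channel, the sperm calcium channel, NMDA receptors and GABA type A receptors. The remaining pair, KCTD19 and TMC8, carry the word channel in their names and are not established channel subunits. Of the chloride group, CLNS1A and CLCN7 encode a regulator and an exchanger rather than a channel pore, as described below.

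Ion channels are membrane proteins that let ions flow down their electrochemical gradients. Potassium channels draw the membrane potential toward rest, sodium leak and mixed cation channels move it the other way, and calcium channels turn a change in voltage into a calcium signal. Ligand-gated channels open on acetylcholine, glutamate or GABA, whereas several chloride channel proteins act inside the cell, in lysosomes or at other membranes. In epithelial and carcinoma cells, potassium and chloride conductances are known for roles in cell volume, secretion and proliferation. Many channels need accessory subunits, which carry no ions themselves and set the trafficking or gating of the pore.

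In all, 3 libraries are titled shControl and 3 shGPER, the prefix sh standing for a short hairpin RNA. The genotype of the shControl cells is labelled WT, so whether these cells carried a control hairpin is uncertain, and that of the others GPER knockdown. Neither the number of hairpins, nor whether lines were clones, nor whether libraries came from separate cultures is stated by the labels, and the p-values below measure the spread between these libraries alone, which may be technical. Levels are given as TPM, transcript abundance scaled for transcript length and library size, so that levels of different genes can be set side by side. TPM keep no read counts, so the libraries' depth is unknown. The targeted GPER1 fell from 10.8 ± 0.353 to 2.24 ± 0.354 TPM (SD, n = 3 each), and no shGPER library exceeded 2.47 TPM, so that 20.7% of the control mean was left.

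The table is a part of the transcriptome in which nearly every gene separates the groups: 98.4% of 1651 tested genes were called and the groups did not overlap for 95.3% of all 2128. A call on a channel gene is therefore weak information by itself, and the counts below are read against the same counts over the whole table. Few markers of the labelled cell type could be read. Of 8 epithelial markers 2 were listed, which differed in direction: JUP rose from 77.05 to 80.38 TPM to 166.99 to 223.85 TPM, and CDH1 was below 1 TPM in all 6 libraries, with means of 0.533 and 0.233 TPM. Of 9 gastric and mucin markers TFF1 alone was listed, at 4.4 to 6.2 TPM in shControl and 0.3 to 2.9 TPM in shGPER. Of 9 neuroendocrine markers the 5 listed (CHGB, SCG2, SCG3, SYP and VGF) all rose, against 47.8% of all tested genes. Their sum was 9.7 to 10.5 TPM in shControl and 99.2 to 111.2 TPM in shGPER. CHGB and SCG3 were under 1 TPM in every shControl library and had to be higher in shGPER to be tested. Of 7 fibroblast markers 5 were listed, summing to 7.0 to 9.9 TPM in shControl and 31.9 to 33.3 TPM in shGPER, but only COL1A1 of the 3 tested rose (means 2.83 and 29.4 TPM), whereas LUM and DCN fell. The sums were 2.1 to 2.5 and 7.5 to 8.7 TPM for the 2 listed of 6 endothelial markers, of which CDH5 rose and ERG overlapped between the groups and was not called, and 0.8 to 1.0 and 2.6 to 5.7 TPM for the 2 listed of 6 muscle markers. Of 10 neuron markers only RBFOX3 was listed, at no more than 0.21 TPM in shControl and 0.74 TPM in shGPER, and no leukocyte marker was listed. No listed marker was at 0 in any library. The part of these markers in the results below was not tested. In bulk RNA, a gene expressed by fewer cells and a gene expressed less per cell cannot be told apart.

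Promoter sequences are shown for 6 members on which the results turn, each from 250 bases before to 50 after an annotated start (RefSeq, GRCh38.p14). The first 4 genes rose in shGPER cells and the last 2 fell. Capitals mark matches, on either strand, to the TEAD motif GGAATG, searched because YAP, which the study title names, acts through TEAD factors, to the CREB motif TGACGTCA, to the AP-1 motif TGANTCA, or to the GC box GGGCGG. Matches may overlap.
CHRNB2 (chr1:154567528-154567827, plus strand): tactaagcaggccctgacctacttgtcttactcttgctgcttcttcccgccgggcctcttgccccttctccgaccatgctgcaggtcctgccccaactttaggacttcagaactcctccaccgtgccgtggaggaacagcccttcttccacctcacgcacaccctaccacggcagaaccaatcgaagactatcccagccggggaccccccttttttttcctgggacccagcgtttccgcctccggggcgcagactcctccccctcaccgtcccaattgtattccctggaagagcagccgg
NALF2 (chrX:69504076-69504375, plus strand): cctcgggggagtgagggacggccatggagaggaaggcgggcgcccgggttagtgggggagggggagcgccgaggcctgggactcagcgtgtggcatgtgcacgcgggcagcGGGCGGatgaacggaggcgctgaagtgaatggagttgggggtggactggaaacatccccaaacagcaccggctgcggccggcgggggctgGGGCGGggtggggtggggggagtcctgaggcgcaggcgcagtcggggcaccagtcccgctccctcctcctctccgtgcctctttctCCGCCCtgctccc
KCNK6 (chr19:38319595-38319894, plus strand): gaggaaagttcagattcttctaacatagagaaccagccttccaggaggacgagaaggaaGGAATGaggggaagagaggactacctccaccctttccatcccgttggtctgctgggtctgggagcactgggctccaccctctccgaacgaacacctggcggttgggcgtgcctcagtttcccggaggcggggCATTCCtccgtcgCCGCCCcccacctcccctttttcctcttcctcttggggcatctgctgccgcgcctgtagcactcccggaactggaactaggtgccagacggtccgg
HCN2 (chr19:589631-589930, plus strand): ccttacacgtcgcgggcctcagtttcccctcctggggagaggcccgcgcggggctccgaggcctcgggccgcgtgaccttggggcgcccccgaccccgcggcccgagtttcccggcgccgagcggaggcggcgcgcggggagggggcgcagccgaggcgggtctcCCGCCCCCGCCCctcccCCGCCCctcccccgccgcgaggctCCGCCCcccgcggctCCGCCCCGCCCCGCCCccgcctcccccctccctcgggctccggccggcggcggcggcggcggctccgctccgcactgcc
CLIC4 (chr1:24745197-24745496, plus strand): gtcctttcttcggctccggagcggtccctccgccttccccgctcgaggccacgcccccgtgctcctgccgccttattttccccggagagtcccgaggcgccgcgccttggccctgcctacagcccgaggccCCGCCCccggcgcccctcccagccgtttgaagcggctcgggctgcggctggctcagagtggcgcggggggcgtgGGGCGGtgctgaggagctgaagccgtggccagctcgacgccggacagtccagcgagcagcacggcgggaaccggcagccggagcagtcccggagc
KCNK2 (chr1:215005292-215005591, plus strand): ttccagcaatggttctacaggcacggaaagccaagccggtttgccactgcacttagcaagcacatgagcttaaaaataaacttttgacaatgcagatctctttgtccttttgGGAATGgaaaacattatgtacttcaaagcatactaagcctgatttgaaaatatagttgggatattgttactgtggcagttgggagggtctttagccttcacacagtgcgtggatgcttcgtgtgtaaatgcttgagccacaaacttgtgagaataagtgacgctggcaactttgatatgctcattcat
Promoters were listed for 24 of the 34 members, 36 sequences in all, since some genes have several starts. A TEAD match was present in 3 of the 36 (8.3%), against 14.0% of all 35116 promoters of the same length. These 3 belong to KCNK6 and KCNC1, which were higher in shGPER cells, and to the KCNK2 promoter printed above, whose gene was lower. KCNC1 and KCNK2 each had another listed promoter, which held no TEAD match. No member promoter held the CREB or the AP-1 motif, which occur in 1.8% and 7.7% of all promoters. A GC box was present in 23 of the 36 member promoters (63.9%) and in 15786 of all 35116, and the HCN2 promoter, with a GC content of 84.7%, held 7 of them, while that of CHRNB2 held no match to any of the 4 motifs. The median GC content was 67.5% for member promoters and 58.7% for all. A match is a string of letters and does not show binding.

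The comparison asked how the channel repertoire of these cells differs after GPER1 knockdown. Most channel genes were higher in shGPER cells: the 3 shGPER values lay wholly above the 3 shControl values for 30 of 34 members (88.2%, against 52.8% of all genes in the table) and wholly below for 4 (11.8%, against 42.6%). The 4 that were lower are CLIC4, CLNS1A, KCNK2 and TRPM7. A test required 1 TPM or more in 3 or more libraries, which 24 members met, and of these 20 rose (83.3%, against 47.8% of all tested genes) and 4 fell (16.7%, against 50.6%; limma on log2(TPM + 1), adjusted p under 0.05). The median log2 fold change was 0.96 for the tested members and -0.49 for all tested genes. For 8 of the 24 no shControl library reached 1 TPM, and these had to be higher in shGPER to be tested. CHRNA9 and KCNJ11 reached it in only 1 shControl library each, so that 10 members in all needed shGPER libraries to pass. Of the 14 with at least 1 TPM in every shControl library, 10 rose and 4 fell, against 38.8% and 60.2% of the 1387 table genes of that kind. With 3 libraries against 3, the exact two-sided permutation test of a single gene cannot go below p = 0.1, and it gave that value for all 34 members.

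**Figure D1:**
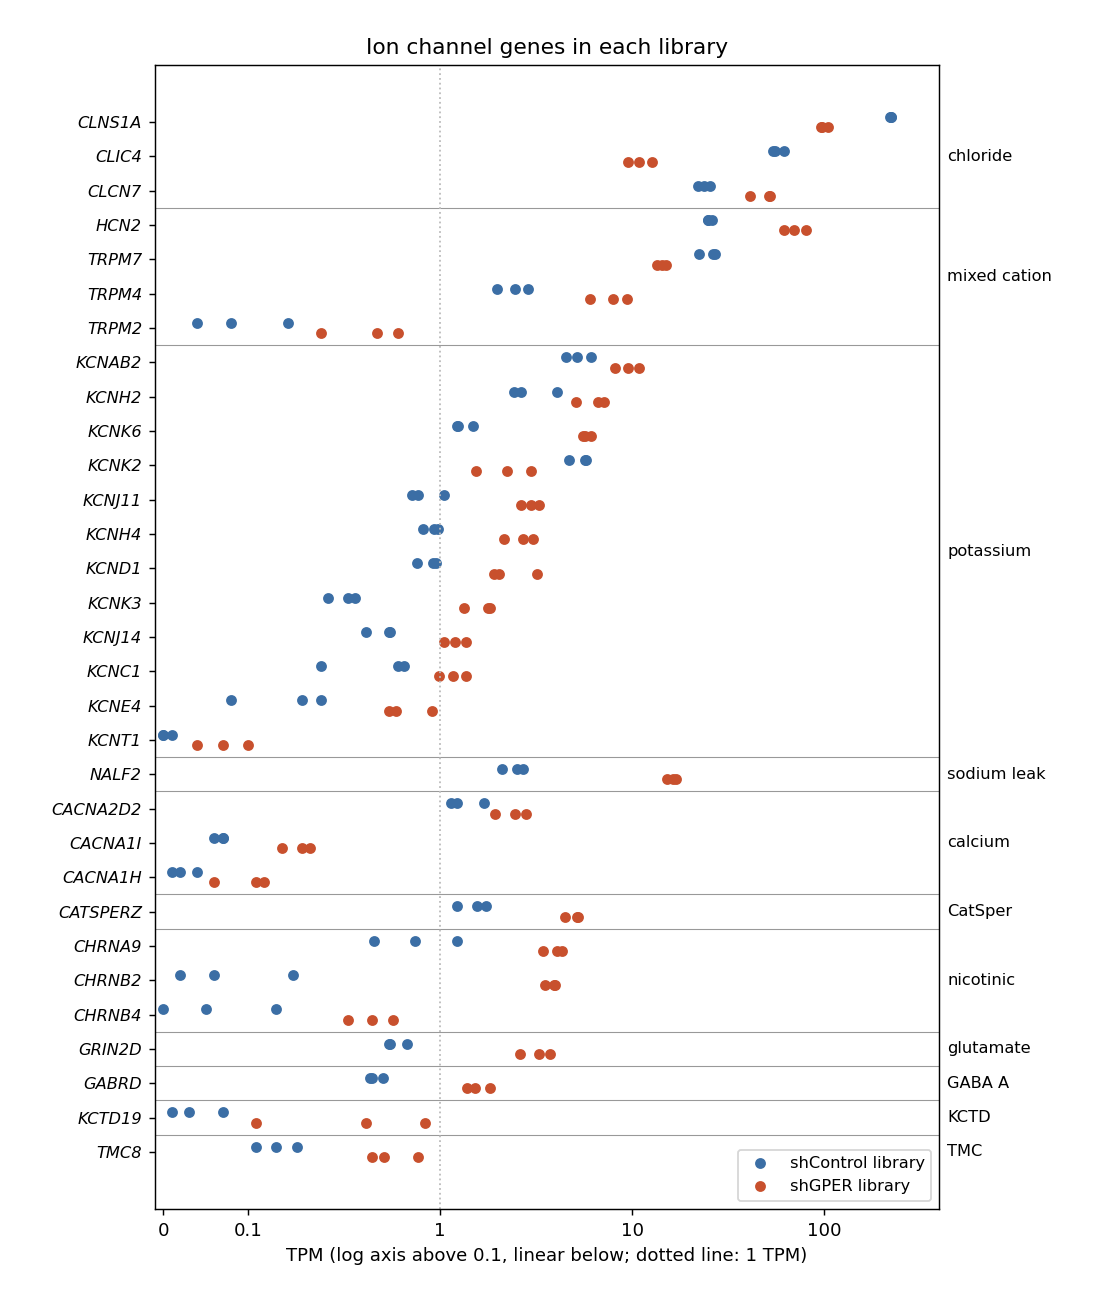
TPM of 31 of the 34 ion channel genes in each of the 3 shControl (blue) and 3 shGPER (red) libraries, grouped by ion or ligand, on an axis that is logarithmic above 0.1 TPM and linear below. Red points lie to the right of all blue points in every row except those of CLNS1A, CLIC4, TRPM7 and KCNK2.

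Direction among the members went with base composition, as it did across the table. The median GC content of the annotated transcripts (GENCODE release 29, GRCh38) was 61.5% for the 30 members that were higher in shGPER and 45.1% for the 4 that were lower, compared with 59.6% for all genes called higher and 44.3% for all called lower. Among tested genes of 60 to 65% GC, 9 of 9 members rose, as did 88.9% of all 298 genes in that range. Among those of 55 to 60% GC, 7 of 7 members rose, and 77.9% of all 244. Below 45% GC, where 9.3% of 496 tested genes rose, TRPM7 and CLNS1A fell and CHRNA9 rose. When the trend of each library with GC content was removed, 7 of the 24 tested members stayed higher (NALF2, CHRNB2, KCNK6, CHRNA9, HCN2, GRIN2D and CATSPERZ). That is no larger a share than the 31.5% of 1626 genes that were higher over the table. Of the 7, CHRNB2 and GRIN2D had passed the filter through shGPER alone. CHRNA9, with only 1 shControl library at 1 TPM or more, had also needed shGPER libraries to pass. CLIC4 and CLNS1A stayed lower, against 31.1% of genes, and the other 15 members passed in neither direction. How the genes of the table were selected is not known, and since nearly all of them separate the groups, a call lost on removal of the GC trend does not show an unchanged gene. The part of base composition in the results was not otherwise tested.

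**Figure D2:**
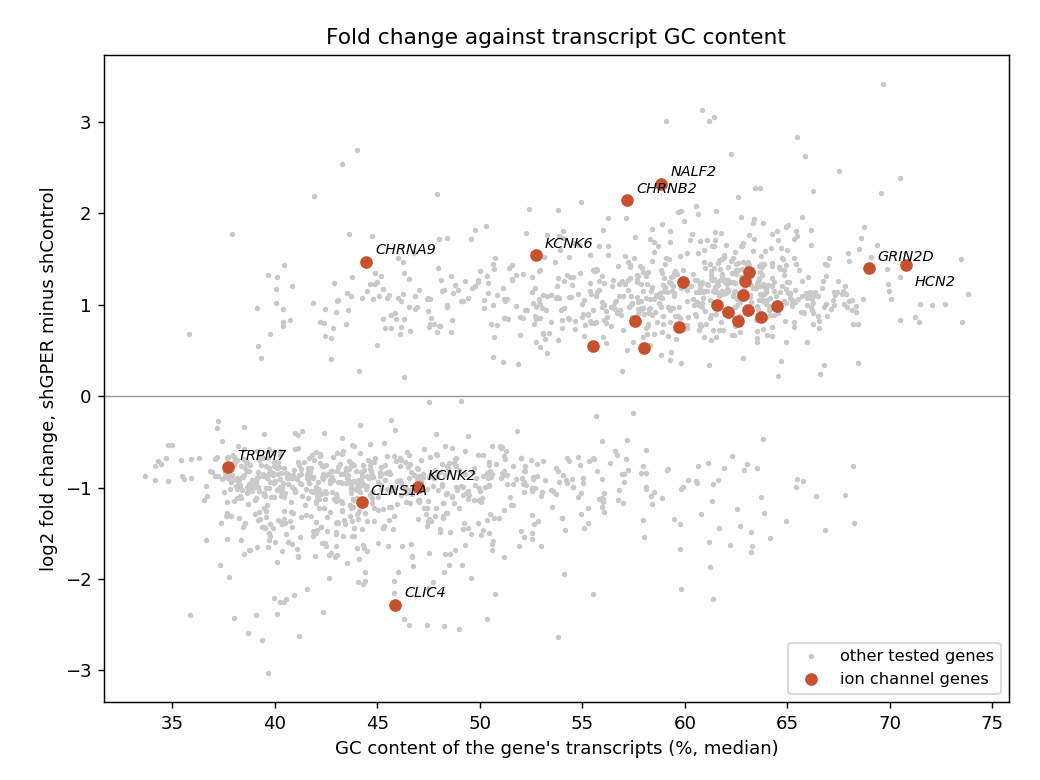
Log2 fold change (shGPER minus shControl, log2(TPM + 1) scale) against the median GC content of a gene's transcripts, for the 24 tested ion channel genes (red) and all other tested genes with a GC value (grey). Most red points lie among the GC-rich genes that rose, and CHRNA9, at 44.5% GC, lies above 0 in a range where most genes fell.

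The chloride group included the most abundant members and moved in both directions. CLIC4 (ENSG00000169504, chromosome 1, 24745357 to 24844324, plus strand) encodes a chloride intracellular channel protein that is found in soluble and membrane forms. The 3 shControl values were 54.52, 55.54 and 61.69 TPM, and the 3 shGPER values 10.89, 12.67 and 9.57 TPM. Every shGPER library was thus far below every shControl library, with 19.3% of the control mean left. This was the largest fall among the tested members (log2 fold change -2.28, SE 0.10; limma, adjusted p = 3.54e-07), and CLIC4 remained lower, at -1.60, without the GC trend.

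CLNS1A (ENSG00000074201, chromosome 11, 77514936 to 77637805, minus strand) encodes pICln, first described as a chloride current regulator and now best known as a chaperone in the assembly of spliceosomal ribonucleoproteins. It was the most abundant member in both groups. Its level was 224.99, 220.51 and 225.05 TPM in shControl and 104.99, 96.23 and 97.80 TPM in shGPER. The 3 libraries of each group lay close together and 44.6% of the control mean was left (log2 fold change -1.16, SE 0.05; limma, adjusted p = 3.63e-07). The fall was -0.37 without the GC trend, and still called.

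CLCN7 (ENSG00000103249, chromosome 16, 1444934 to 1475580, minus strand) encodes the chloride-proton exchanger of lysosomes, a relative of the chloride channels. It rose from 22.10, 25.39 and 23.85 TPM in shControl to 41.00, 51.67 and 52.21 TPM in shGPER, a ratio of means of 2.03. The lowest shGPER library was well above the highest shControl library (log2 fold change 0.99, SE 0.10; limma, adjusted p = 2.42e-05). Without the GC trend the difference was -0.08 and not called. Antisense genes annotated at this locus share up to 1124 exonic bases with CLCN7. OSTM1, which encodes the accessory subunit of this exchanger and was looked up after the values of CLCN7 were seen, had a mean of 8.53 ± 0.267 TPM in shControl and fell to 4.11 ± 0.241 TPM in shGPER (SD, n = 3; limma log2 fold change -0.90, adjusted p = 1.83e-05). Once the GC trend was removed, 0.02 was left and OSTM1 was not called. The exchanger and its accessory subunit therefore differed in direction on the TPM scale, with a transcript GC content of 64.5% for CLCN7 and 37.7% for OSTM1.

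Among mixed cation channels HCN2 was the most abundant in shGPER cells, while in shControl cells its level overlapped with that of TRPM7. HCN2 (ENSG00000099822, chromosome 19, 589893 to 617159, plus strand) encodes a pacemaker channel that opens on hyperpolarization and binds cyclic AMP. Its level was 24.85, 25.03 and 26.02 TPM in shControl and 62.14, 69.68 and 80.39 TPM in shGPER. The shControl libraries were nearly equal, the shGPER libraries spread more widely, and all of the latter were higher, with a ratio of means of 2.80. The log2 fold change was 1.44 (SE 0.09; limma, adjusted p = 1.65e-06), and 0.32 without the GC trend, still called. HCN2 was the member of second-highest level in shGPER cells, after CLNS1A.

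The melastatin family of transient receptor potential channels had 3 members, which did not move alike. TRPM7, a channel for magnesium and calcium fused to a protein kinase, fell from 22.29, 27.11 and 26.37 TPM to 15.09, 13.52 and 14.37 TPM, so that 56.7% was left. Its log2 fold change was -0.77 (SE 0.09; limma, adjusted p = 4.84e-05), and without the GC trend it was 0.15 and not called. An annotated antisense gene shares 606 exonic bases with TRPM7. TRPM4, a calcium-activated channel for monovalent cations, rose from 2.86, 1.97 and 2.44 TPM to 6.06, 7.92 and 9.45 TPM (limma log2 fold change 1.35, SE 0.17; adjusted p = 6.32e-05). Without the GC trend this was 0.33 and not called. TRPM2, which is gated by ADP-ribose and oxidative stress, was too low to be tested, with 0.04 to 0.16 TPM in shControl and 0.24 to 0.60 TPM in shGPER.

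NALF2 (ENSG00000130054, chromosome X, 69505241 to 69532508, plus strand) had the largest rise of the tested members on the log2(TPM + 1) scale, though that of CHRNB2 was larger with a pseudocount of 0.5 or 0.1. Its product is an auxiliary factor of NALCN, the sodium leak channel that sets resting excitability. Its level was 2.70, 2.09 and 2.50 TPM in shControl and 15.16, 16.40 and 16.99 TPM in shGPER. Every shGPER library was several times above the highest shControl library, with a ratio of means of 6.66. The log2 fold change was 2.33 (SE 0.10; limma, adjusted p = 3.34e-07), and 1.56 without the GC trend. The pore gene NALCN and its partners UNC79 and UNC80 were not analysed here.

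Potassium channel genes were the largest group, and 14 of its 15 members were higher in shGPER cells, where 52.8% of all genes in the table were. Of the 11 that were tested, 10 rose and 1 fell, against 47.8% and 50.6% of all tested genes. Their log2 fold changes had a median of 0.93, but 5 of the 11 passed the filter through shGPER alone, which fixed their direction. KCNJ11 also needed shGPER libraries to pass. The summed level of the 15 genes was 18.8 to 23.5 TPM in shControl and 38.8 to 48.3 TPM in shGPER. The sum was shared by many genes of low level, and no single gene supplied most of it.

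**Figure D3:**
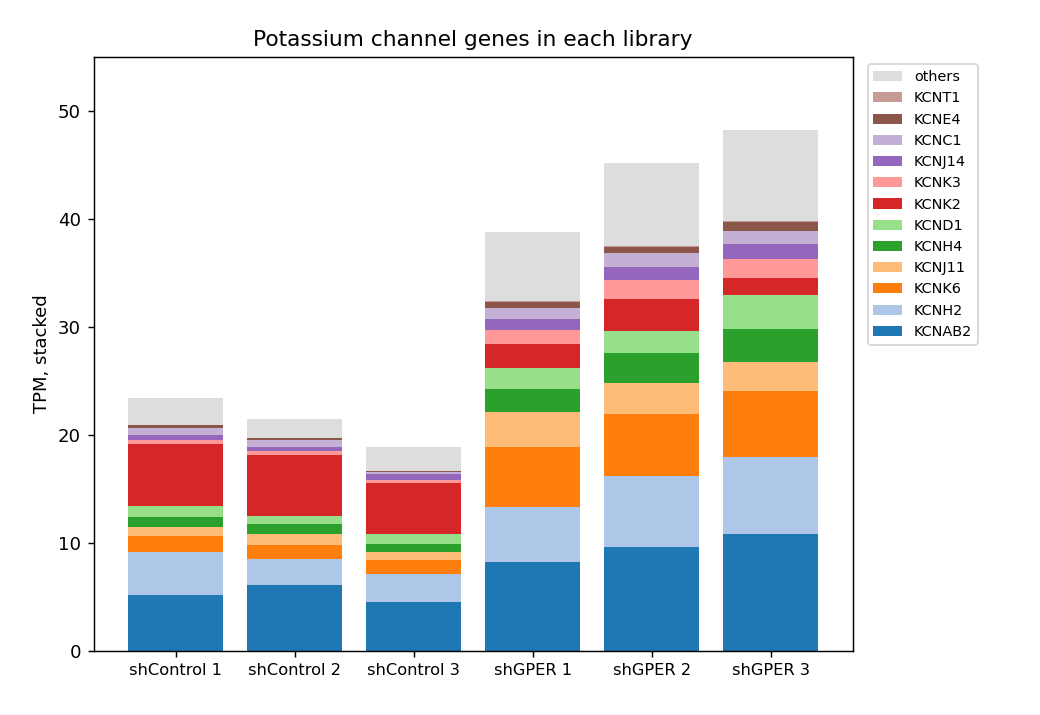
Stacked TPM of the 15 potassium channel genes in each of the 6 libraries, 3 of them summed as others (light grey). The shGPER stacks reach 38.8 to 48.3 TPM and the shControl stacks 18.8 to 23.5 TPM, and the KCNK2 segment is the one that is smaller in every shGPER library.

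Tandem-pore channels, which carry the background potassium leak, held the clearest contrast. KCNK2 (ENSG00000082482, chromosome 1, 215005775 to 215237093, plus strand) encodes TREK-1, a leak channel opened by stretch, heat and lipids and closed through cyclic AMP signaling. It fell from 5.76, 5.66 and 4.71 TPM in shControl to 2.23, 2.98 and 1.54 TPM in shGPER, which left 41.8%. KCNK2 went from the highest potassium channel gene in shControl, at a level not separable from that of KCNAB2, to a mean below those of 7 other potassium channel genes in shGPER. Its log2 fold change was -0.99 (SE 0.17; limma, adjusted p = 0.000512), and -0.41 without the GC trend, which was not called.

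KCNK6 (ENSG00000099337, chromosome 19, 38319844 to 38332076, plus strand), which encodes the tandem-pore channel TWIK-2, moved the other way. Its level was 1.49, 1.23 and 1.24 TPM in shControl and 5.53, 5.67 and 6.12 TPM in shGPER. The libraries of each group were close together and far from those of the other group, with a ratio of means of 4.37. The log2 fold change was 1.55 (SE 0.10; limma, adjusted p = 2.04e-06), and it was 1.45 without the GC trend, the smallest shift among the members that rose by 1 or more. KCNK3, the acid-sensitive leak channel TASK-1, rose from 0.26 to 0.36 TPM to 1.33 to 1.82 TPM (log2 fold change 1.00; limma, adjusted p = 4.4e-05). No shControl library reached 1 TPM, so that the filter fixed its direction, and 0.05 was left without the GC trend.

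Voltage-gated potassium channel genes all had higher values in shGPER cells. KCNH2, which encodes hERG, the channel of cardiac repolarization that is also expressed in several carcinomas, was at 4.04, 2.42 and 2.63 TPM in shControl and at 5.13, 6.65 and 7.14 TPM in shGPER. One shControl library stood above the other 2, yet below all shGPER libraries. The log2 fold change was 0.87 (SE 0.18; limma, adjusted p = 0.00132). KCNH4, of the same superfamily as KCNH2, was at 0.97, 0.93 and 0.81 TPM and then at 2.15, 2.70 and 3.05 TPM, and KCND1, a subunit of A-type currents, at 0.95, 0.76 and 0.92 TPM and then at 1.90, 2.03 and 3.18 TPM. KCNH4 and KCND1 were under 1 TPM in every shControl library, so that the filter fixed their direction. Their log2 fold changes were 0.93 and 0.83 (SE 0.12 and 0.16; limma, adjusted p = 0.000108 and 0.000851). None of these 3 genes stayed called without the GC trend, at 0.17 for KCND1, -0.05 for KCNH4 and -0.17 for KCNH2.

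KCNAB2 encodes a beta subunit of voltage-gated potassium channels with an aldo-keto reductase fold. It was the most abundant potassium channel gene in shGPER cells, at 8.18, 9.57 and 10.84 TPM, after 5.14, 6.10 and 4.52 TPM in shControl. The groups did not overlap (log2 fold change 0.75, SE 0.13; limma, adjusted p = 0.000601), but the difference was -0.09 without the GC trend. Among inward rectifiers, KCNJ11, the pore of the ATP-sensitive channel that couples metabolism to secretion, rose from 0.77, 1.04 and 0.71 TPM to 3.26, 2.96 and 2.63 TPM. Its log2 fold change was 1.10 (SE 0.12; limma, adjusted p = 3.03e-05), and 0.09 without the GC trend. Only 1 shControl library reached 1 TPM, so that KCNJ11 needed its shGPER libraries to pass the filter. The sulfonylurea receptor genes ABCC8 and ABCC9, whose products complete the ATP-sensitive channel, were not analysed here. KCNJ14, another inward rectifier, was at 0.41 to 0.55 TPM in shControl and 1.05 to 1.36 TPM in shGPER (log2 fold change 0.55; limma, adjusted p = 0.00104). The direction of KCNJ14 was fixed by the filter, since no shControl library reached 1 TPM. Its call was lost with quantile normalization (0.09) and without the GC trend (0.11). The gene also shares 350 exonic bases with GRWD1 on the same strand, so its reads are uncertain.

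Nicotinic receptor genes had 3 members, all higher in shGPER cells. These receptors are acetylcholine-gated cation channels built from alpha and beta subunits. CHRNB2 (ENSG00000160716, chromosome 1, 154567781 to 154580026, plus strand), the beta subunit of the main brain receptor, was nearly absent from shControl libraries, with 0.06, 0.17 and 0.02 TPM. In the shGPER libraries it stood at 3.50, 3.92 and 3.95 TPM, all far above the control values. The log2 fold change was 2.15 (SE 0.11; limma, adjusted p = 5.64e-07), and 1.52 without the GC trend. The direction was fixed by the filter, since no shControl library reached 1 TPM, and at such a level the fold depends on the pseudocount, being 4.49 with a pseudocount of 0.1. An annotated antisense gene shares 321 exonic bases with CHRNB2.

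CHRNA9 (ENSG00000174343, chromosome 4, 40335329 to 40355217, plus strand), an alpha subunit that can form a receptor by itself and is known from hair cells and some carcinomas, was at 1.22, 0.45 and 0.74 TPM in shControl. It reached 3.43, 4.06 and 4.33 TPM in shGPER. The shControl libraries differed from each other, though none came near the shGPER level. Only 1 of them reached 1 TPM, so that CHRNA9 needed its shGPER libraries to pass the filter. Its log2 fold change was 1.47 (SE 0.17; limma, adjusted p = 4.11e-05). It was the only tested member whose rise was larger, at 2.25, without the GC trend. CHRNB4, a beta subunit of autonomic ganglia, stayed below 1 TPM in all libraries, with 0.00 to 0.14 TPM in shControl and 0.33 to 0.57 TPM in shGPER. The alpha subunit genes CHRNA3, CHRNA4, CHRNA5, CHRNA7 and CHRNA10 were not analysed here, so the receptors these subunits could form in the cells cannot be read from the table.

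For glutamate and GABA receptors 1 subunit gene each was listed. GRIN2D, the slowly deactivating subunit of NMDA receptors, went from 0.55, 0.54 and 0.67 TPM to 2.62, 3.28 and 3.72 TPM. The groups lay far apart (log2 fold change 1.40, SE 0.13; limma, adjusted p = 1.04e-05), and 0.28 was left, still called, without the GC trend. GABRD, the delta subunit of extrasynaptic GABA type A receptors, went from 0.43 to 0.50 TPM to 1.38 to 1.82 TPM (log2 fold change 0.82; limma, adjusted p = 0.000101), and -0.18 was left, not called, without that trend. Neither reached 1 TPM in any shControl library, and their direction was fixed by the filter. GRIN1, the obligatory partner of GRIN2D, was not analysed here.

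Calcium channel genes were of low level. CACNA2D2, an alpha2delta subunit that brings voltage-gated calcium channels to the membrane, had 1.14, 1.69 and 1.23 TPM in shControl and 1.92, 2.80 and 2.44 TPM in shGPER. The gap between the groups was small against their spread, and the log2 fold change was 0.52 (SE 0.14; limma, adjusted p = 0.00675), the smallest of the tested members. It was not called after quantile normalization (0.10) or without the GC trend (-0.18). A long non-coding gene on the opposite strand, which shares 606 exonic bases with CACNA2D2, was also called higher (log2 fold change 1.18), and the sources used here do not say whether reads were assigned by strand. The T-type pore genes CACNA1H and CACNA1I were at 0.01 to 0.04 and 0.06 to 0.07 TPM in shControl and at 0.06 to 0.12 and 0.15 to 0.21 TPM in shGPER. CATSPERZ, an accessory subunit of the sperm calcium channel CatSper, rose from 1.22, 1.56 and 1.73 TPM to 4.49, 5.21 and 5.15 TPM. Its log2 fold change was 1.25 (SE 0.12; limma, adjusted p = 1.43e-05), and 0.40 without the GC trend, still called. CATSPERZ shares 746 exonic bases with an annotated read-through transcript from KCNK4, so these reads cannot be assigned to CATSPERZ alone.

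**Figure D4:**
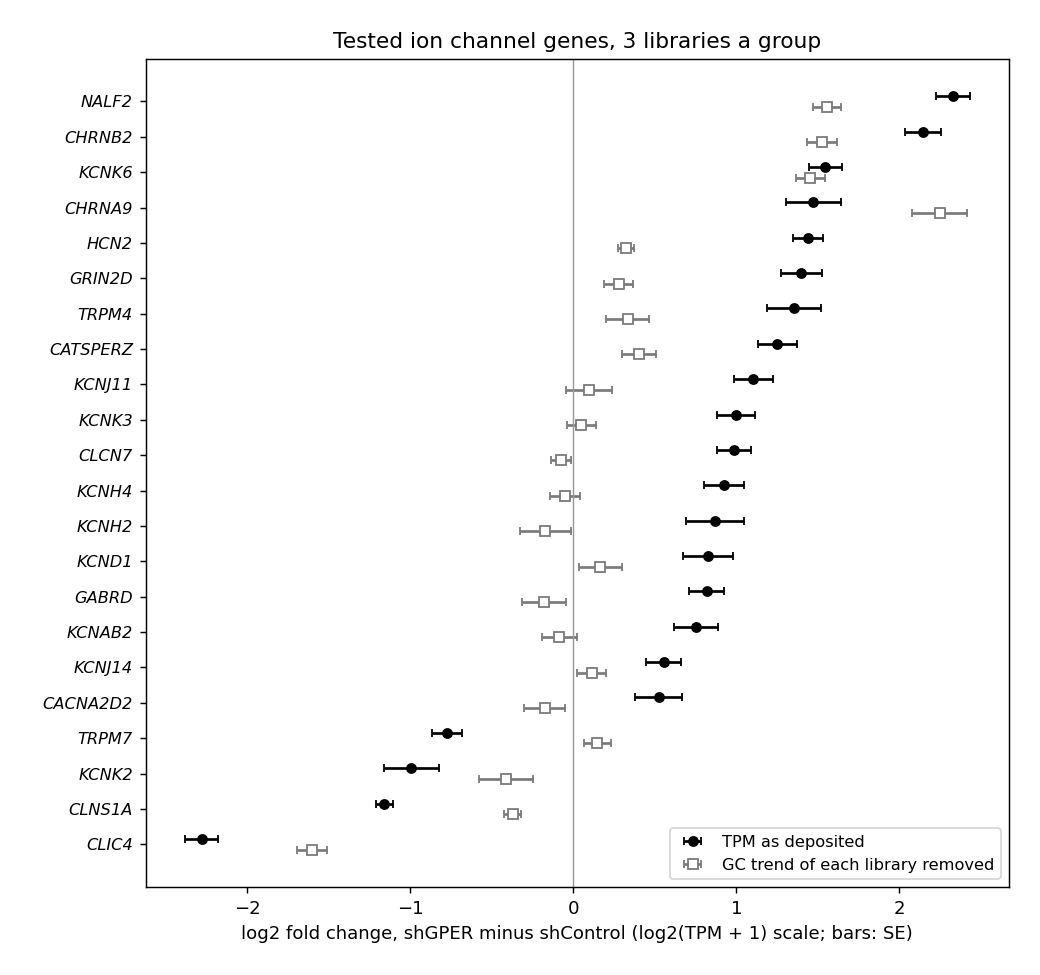
Log2 fold change (shGPER minus shControl) with its SE for 22 of the 24 tested ion channel genes, from TPM as deposited (filled circles) and after the GC trend of each library was removed (open squares). NALF2, CHRNB2, KCNK6 and CHRNA9 lie above 1 and CLIC4 below -1 in both fits, and the other genes lie between -0.41 and 0.40 in the second.

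Below the level for testing there were 10 members, and in all 10 the shGPER libraries lay above the shControl libraries, against 71.7% of the 477 genes of the table under that level. When no filter was applied, 8 of the 10 were called higher, against 71.3% of those 477 genes, and CACNA1H and KCNT1 were not called. The most abundant was KCNC1, with 0.24 to 0.65 TPM in shControl and 0.99 to 1.36 TPM in shGPER. Its product is a channel of fast-spiking neurons. KCNE4, an inhibitory ancillary subunit, was at 0.08 to 0.24 and 0.54 to 0.91 TPM. KCNT1, a sodium-activated potassium channel gene, did not exceed 0.10 TPM in any library and was listed at 0 in 2 of them. KCTD19 was at 0.01 to 0.07 TPM in shControl and varied widely in shGPER, at 0.83, 0.41 and 0.11 TPM. TMC8, of a transmembrane channel-like family, was at 0.11 to 0.18 and 0.44 to 0.77 TPM. Values this low can rest on few reads, and no interval can be given because the depth is unknown.

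The order of levels changed at the top. In shControl cells CLNS1A was followed by CLIC4, then by HCN2, TRPM7 and CLCN7, whose ranges over libraries overlapped, and then by KCNK2 and KCNAB2, which overlapped as well. In shGPER cells the order was CLNS1A, HCN2, CLCN7, NALF2 and TRPM7, each apart from the next, followed by CLIC4 and KCNAB2, which overlapped. The number of members with a mean of at least 5 TPM was 7 in shControl and 10 in shGPER, and the number with a mean under 1 TPM was 20 and 9. The summed level of all 34 members was nevertheless lower in shGPER, at 314.3 to 351.8 TPM against 383.0 to 391.9 TPM. CLNS1A alone went from 220.51 to 225.05 TPM in shControl to 96.23 to 104.99 TPM in shGPER, a larger fall than that of the sum. The sum of all genes in the table was lower too, at 46584 to 49148 TPM against 61181 to 64236 TPM. The chloride group, which includes the CLNS1A regulator gene and the CLCN7 exchanger gene, fell in sum, from 301.4 to 310.6 TPM to 156.9 to 160.6 TPM. CLNS1A and CLIC4 were the most abundant members that fell, whereas CLCN7 rose. Mixed cation channel genes rose in sum, from 50.2 to 54.9 TPM to 83.9 to 104.4 TPM, as did potassium channel genes.

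Genes that work with channels were taken from lists of related proteins, of which few were in the table: 3 of 37 for calcium stores, 4 of 43 for calcium sensors, 5 of 60 for anchors and 1 of 35 for gap junctions were tested. All 3 tested genes of calcium store release and entry fell, as did 50.6% of all tested genes: MCU, the pore of the mitochondrial calcium uniporter, from 22.1 ± 1.03 to 6.33 ± 0.698 TPM, its regulator MCUR1 from 9.54 ± 0.407 to 2.27 ± 0.318 TPM, and ITPR1, a receptor for inositol trisphosphate that releases calcium from the endoplasmic reticulum, from 9.97 ± 1.09 to 3.42 ± 0.408 TPM (SD, n = 3 each). Their log2 fold changes were -1.66, -1.69 and -1.31 (limma, adjusted p = 9.21e-07, 1.5e-06 and 8.68e-06), and all 3 stayed lower without the GC trend. These genes carry no word of the rule in their descriptions and are not members.

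Of 4 tested calcium sensors and calmodulin-linked genes, 3 fell and 1 rose, against 50.6% and 47.8% of all tested genes. S100A10, an annexin partner that assists the surface delivery of several channels, fell from 809 ± 20.0 to 180 ± 17.0 TPM, S100A6 from 7931 to 4211 TPM and the calcineurin subunit gene PPP3R1 from 34.9 to 18.6 TPM. The inhibitor of calmodulin kinase CAMK2N2 rose from 0.543 to 3.43 TPM, but no shControl library reached 1 TPM, so that the filter fixed its direction. S100A6 was not called after quantile normalization (log2 fold change -0.07), nor PPP3R1 without the GC trend (0.03). Of 5 tested anchors and accessory genes 4 rose, against 47.8% of all tested genes, among them NALF2 as above, the postsynaptic scaffolds DLG4, from 4.20 to 10.5 TPM, and SHANK3, from 2.76 to 6.37 TPM. AKAP9, which anchors protein kinase A at channels, fell from 15.6 to 9.26 TPM. Without the GC trend DLG4 stayed higher (0.42), though not when the replicate block was added, whereas SHANK3 (-0.15) and AKAP9 (0.23) were not called. The connexin gene GJD3 rose from 8.75 to 20.2 TPM, with 0.02 left, not called, without that trend.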

How the data were processed

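mRNA libraries of 6 SNU668 samples (a stranded Illumina kit, per the labels' protocols) were grouped by title. Gene-level TPM are what the authors deposited. RSEM, HISAT2, fastp and hg38 appear in the submitters' processing notes, while versions, settings and use of strand in counting are not given in the sources used here, and TPM keep no depth. Log2(TPM + 1) of 1651 genes with at least 1 TPM in at least 3 libraries was modelled by limma 3.58.1 (R 4.3.3; intensity trend, shGPER minus shControl). Two-sided p-values were Benjamini-Hochberg adjusted over all tested genes (threshold 0.05). The fit was tested on simulated data. For low genes this scale understates the fold change. SD and SE are over 3 libraries a group.

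The members, ion classes, lists and alternatives were chosen with earlier results of these data known. Some members and list genes are not reported here by name, though counts and sums include them. The other members are named, those whose mean reached 2 TPM in either group by library, and up to 4 tested genes with the smallest p per list. OSTM1, the channel partners and the 6 promoters were chosen after values were seen. Potassium channel protein sequences, planned for display, were not used here. GC content is the median over GENCODE release 29 transcripts. A GC trend was removed with a natural spline of 3 degrees of freedom on each library's deviations from gene means, and this can also take out a real difference. Positions were matched by gene identifier for 2078 of 2128 genes and all 34 members. Tables were handled with Python 3.11.15 and pandas 2.3.3.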

Additional observations from a re-analysis of the deposited data

How the results depend on the processing

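The counts of 20 members called higher and 4 lower, and of 789 and 836 genes over the table, moved by less than 1.5 times with pseudocounts of 0.1 or 0.5, no filter, a robust prior, quantile normalization, median centring, no intensity trend or any 1 library left out. Leaving out any 1 library changed no call among the 24 tested members, with 20 to 20 higher and 4 to 4 lower. Median centring moved the median of all tested genes from -0.49 to -0.33 and changed no member's call. A filter of 5 TPM left 7 members called higher and 438 genes of the table, because fewer genes were tested. Removing the GC trend left 7 members higher and 2 lower, and 512 and 506 genes over the table. With the replicate block added to it, 6 members and 493 genes were higher and 498 genes lower. GRIN2D and the scaffold gene DLG4 were no longer called, and KCNK2 was called lower again. Without the GC trend, with or without the block, the log2 fold change turned to -0.18 for CACNA2D2 and GABRD, -0.17 for KCNH2, -0.09 for KCNAB2, -0.08 for CLCN7, -0.05 for KCNH4, 0.15 for TRPM7, -0.15 for SHANK3, 0.23 for AKAP9, 0.03 for PPP3R1 and 0.02 for OSTM1, none of them called. The cause was not tested.

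No pairing by library number was seen: deviations of same-numbered libraries from their group means correlated at 0.033, -0.087 and 0.013 over tested genes. With so few libraries, these values cannot decide whether same-numbered libraries were prepared together. The replicate block by itself gave 20 members higher and 4 lower, and 790 and 832 genes over the table. It changed no call among the tested members. The depth is unknown, so no detection limit can be set for the members under 1 TPM.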

Other observations

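The 34 members lie on 15 chromosomes, with 6 each on chromosomes 1 and 19. The closest pair is GRIN2D and KCNJ14 on chromosome 19, 10.6 kb apart on the same strand, with log2 fold changes of 1.40 and 0.55. The next are CACNA1H and CLCN7 on chromosome 16, 223.2 kb apart, and KCNJ11 and KCNC1 on chromosome 11, 345.4 kb apart. Exonic bases were shared with another annotated gene by 13 members, for 11 of them with a gene on the opposite strand.

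The pathway terms deposited with the table were present for 19 members. The term of neuroactive ligand-receptor interaction covered 5 (CHRNA9, CHRNB2, CHRNB4, GABRD and GRIN2D), all of which had higher values in every shGPER library than in any shControl library, as had 52.8% of the table. The term of cortisol synthesis and secretion covered CACNA1H, CACNA1I, KCNK2 and KCNK3, of which KCNK2 was lower and the others higher. No enrichment was tested.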
